A study of Homo sapiens with 48 samples.

Results

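SST and GAD1 are a pair of genes that mark inhibitory neurons in the brain, and 2 of the 452 genes that a targeted probe panel read in human embryoid bodies and their reference cells. All probes carrying either symbol were taken, which gave 5 of 1113 probes: SST probes 1146 and 1147, and GAD1 probes 292, 293 and 294. Both genes were chosen by their mean levels over the groups, SST through its level in embryoid bodies against undifferentiated cells, so the levels across groups are given as descriptions without a test. Of the group levels, only those of the embryoid bodies were tested against each other, and those p-values carry the limit of this choice.

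The assay, RASL-Seq, captures polyadenylated RNA, lets a pair of short oligonucleotides anneal side by side on each target, joins them and counts the joined products by sequencing. All 48 libraries came from WA09 (H9), a human embryonic stem cell line, labelled with a normal genotype. Embryoid bodies are balls of differentiating stem cells. They were seeded at 20000 cells per well and kept for 7 days in Essential 6 medium, with the CEPT cocktail (CEPT EB, 16 libraries) or the ROCK inhibitor Y-27632 (Y27 EB, 16 libraries) present over the first 24 hours. Single-cell dissociation kills many pluripotent cells, and both agents are used to keep them alive. The reference groups held 4 libraries each. They were untreated stem cells (hESC), ectoderm made with the inhibitors A83-01 (2 µM) and LDN-193189 (100 nM) over 6 days, and mesoderm and endoderm made with STEMdiff kits over 5 days. The labels do not say whether libraries of a group came from separate cultures, so each p-value measures the spread between these libraries only. Whole embryoid bodies were lysed, so fewer cells of a type and less RNA per cell cannot be told apart. The labels give no cell sort, and no protein was measured.

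Library totals ran from 1814266 to 4794912 reads in CEPT EB, from 379810 to 5577868 in Y27 EB and from 1773969 to 4227384 in the 16 reference libraries. The shallowest was Y27 EB replicate 15, which also had the highest summed mesoderm markers of any embryoid body library, a sum of 4076 CPM (a probe's reads relative to the scaled library total, here with a prior count of 2 reads added to each probe), where the next Y27 EB library had 271.8. Another 7 libraries stood apart in a different way. In CEPT EB replicates 3, 5, 8, 14, 15 and 16 and Y27 EB replicate 12, pairs of probes to the same gene gave other ratios than in the remaining 25 embryoid body libraries, across 127 gene pairs that leave out SST and GAD1. A score of that shift, the first principal component of the 127 ratios (38.1% of their variance), was 1.84 to 5.48 in those 7 libraries and at most 0.55 in the others. Since 6 of the 7 are CEPT EB libraries, the main tests between the arms are also given without them. So are the correlation of the pair, its spreads and the likenesses within the embryoid bodies. Group levels, read shares, folds, probe balances and counts against hESC are given over all libraries unless stated.

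SST encodes somatostatin, a peptide hormone cut from a longer precursor. It is released by a class of cortical inhibitory interneurons, by sensory and hypothalamic neurons and by the delta cells of the pancreas and gut, and it acts through inhibitory receptors. GAD1 encodes GAD67, one of the enzymes that make the transmitter GABA from glutamate. GABA neurons use it together with GAD2 and load GABA into vesicles for release. In the forebrain many somatostatin neurons are also GABA neurons, which is why the pair is read as an interneuron signature, but each gene also has expression of its own outside that cell type.

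SST lies on chromosome 3 (chr3:187668912-187670394, minus strand) and GAD1 on chromosome 2 (chr2:170813210-170861151, plus strand) in RefSeq on GRCh38.p14. The 250 bases before 1 RefSeq start of each gene are shown because the SST promoter is the textbook case of a cyclic AMP response element, the binding site of CREB. The SST window is chr3:187670395-187670644 and the GAD1 window chr2:170816637-170816886. Both are printed 5′ to 3′ on the gene's strand, ending at the base before the start. GAD1 has other annotated starts, and the GENCODE transcript used below for probes 292 and 294 starts before the window, at 170816562. Capitals mark the 8-base element TGACGTCA and the TATA box letters TATAAA, read on both strands.
SST: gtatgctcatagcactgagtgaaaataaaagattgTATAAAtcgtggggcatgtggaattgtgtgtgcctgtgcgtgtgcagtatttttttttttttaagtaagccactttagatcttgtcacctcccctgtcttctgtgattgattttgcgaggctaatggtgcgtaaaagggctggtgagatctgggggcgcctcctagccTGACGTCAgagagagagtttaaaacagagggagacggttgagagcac
GAD1: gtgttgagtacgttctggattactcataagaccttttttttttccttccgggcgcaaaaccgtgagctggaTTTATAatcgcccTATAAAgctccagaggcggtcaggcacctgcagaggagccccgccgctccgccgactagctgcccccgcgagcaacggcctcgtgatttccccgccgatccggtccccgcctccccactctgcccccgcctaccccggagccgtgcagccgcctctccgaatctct
The element TGACGTCA was present in the SST window, with its first base at -47, and not in the GAD1 window. Of 35116 RefSeq promoter windows of the same length, 1.65% held it. TATAAA occurred in both windows, as in 10.7% of all, at -215 in SST and at -166 and, on the reverse strand, at -179 in GAD1. GC content was 45.6% with 7 CpG dinucleotides in the SST window and 61.6% with 23 in the GAD1 window, against medians of 58.0% and 11 over all windows. These matches describe sequence, and no binding was measured.

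Where each probe reads its transcript matters for what follows. The position in each probe's name was placed on the GENCODE v29 transcript that is paired with the named RefSeq transcript, whose version the probe names do not give. SST has a single transcript of 618 bases in 2 exons. Probe 1146, at base 273, falls in its coding sequence in exon 2, and probe 1147, at base 476, in the 3′ untranslated region of the same exon, 142 bases from the end. The main GAD1 transcript of 3604 bases has 17 exons. Probe 292, at base 4, lies in the 5′ untranslated region in exon 1, and probe 294, at base 3293, in the 3′ untranslated region in exon 17. Probe 293, at base 946, lies in the coding sequence of a shorter transcript of 1252 bases and 7 exons. Probes differ in efficiency, so levels are compared between samples for a probe and never between probes or genes.

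SST was read in every embryoid body library. Its 2 probes together took 1.08% ± 0.39 of all reads in CEPT EB (SD, n = 16) against 0.942% ± 0.281 in the Y27 arm (SD, n = 16). With probe 1147 the lowest CEPT EB library was at 3046 CPM, the median at 5694 and the highest at 12089. In Y27 EB the lowest was at 2140 CPM, the median at 3517 and the highest at 6147. All 32 embryoid body libraries thus held SST reads, and the arms overlapped. Y27 EB replicate 15, the shallow library with mesoderm markers, held the lowest value but still 984 reads of this probe.

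In ectoderm, SST probe 1147 gave 12, 22, 10 and 22 reads in replicates 1 to 4, which is 4.69, 7.21, 4.63 and 6.74 CPM. In mesoderm the 4 libraries gave 5, 1, 2 and 5 reads, in endoderm 2, 0, 4 and 1, and in hESC 1, 0, 0 and 1. The ectoderm libraries all lay above those 3 groups and all far below the embryoid bodies, while mesoderm, endoderm and hESC overlapped. A count of 3 reads corresponded to 1.14 to 1.68 CPM in hESC, so these cells were at or under the level the depth can show. The mean of CEPT EB was at least 4427-fold higher than hESC measured against that floor of 3 reads per library, and the mean of Y27 EB at least 2722-fold higher. Against ectoderm the ratio of means was 1094 for CEPT EB and 673 for Y27 EB. In the 10 CEPT EB libraries that do not stand apart, the mean of probe 1147 was 4983 CPM, against 6362 over all 16. Probe 1146 gave the same picture, with 4972 ± 1547 CPM in CEPT EB, 3852 ± 1098 in Y27 EB (SD, n = 16 each), 4.79 ± 1.44 in ectoderm and 0.612 ± 0.516 in hESC (SD, n = 4 each). In the ectoderm cells, made by neural induction over 6 days, SST was thus far under its level in the embryoid bodies of 7 days. Agents, culture format and days differ together between these groups and cannot be told apart.

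**Figure D1:**
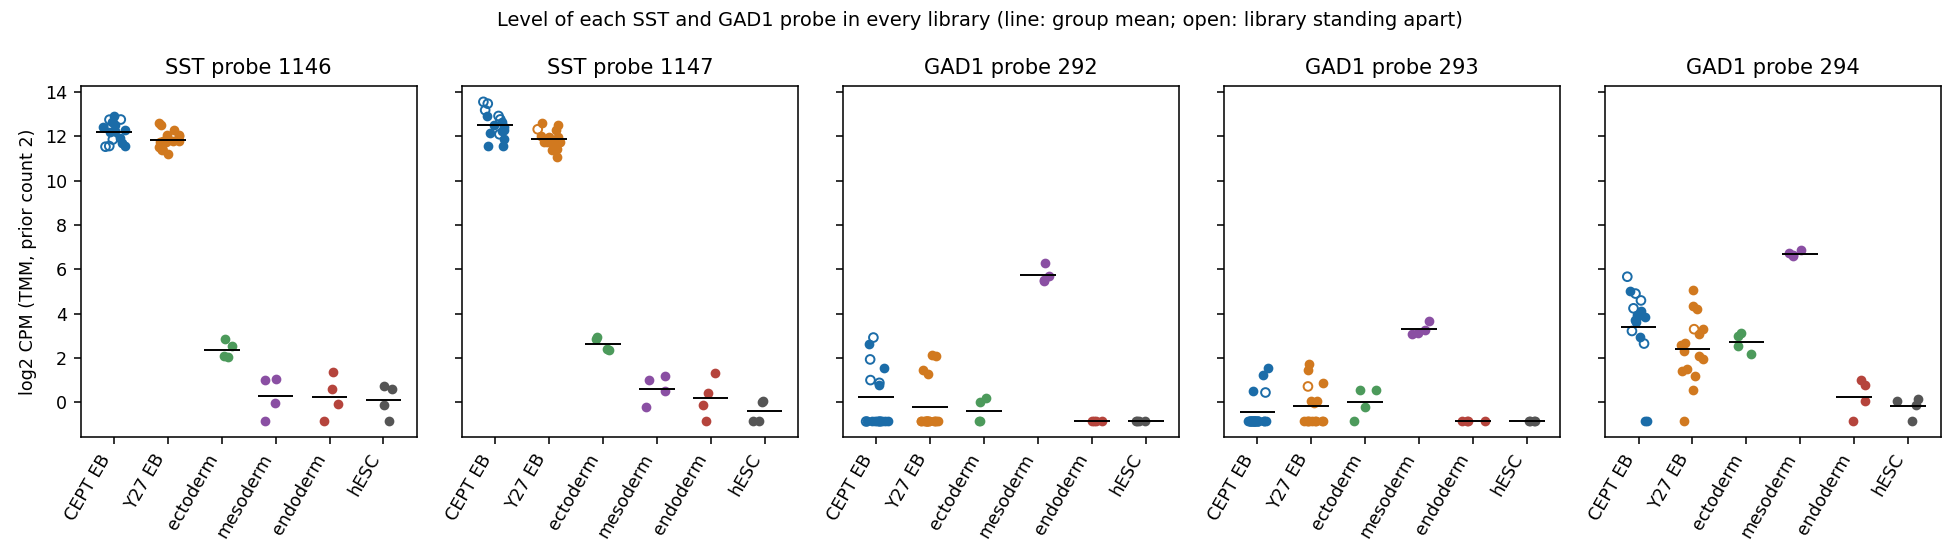
Level of each SST and GAD1 probe in every library, as log2 CPM after TMM scaling with a prior count of 2 (vertical axis), by group (horizontal axis). Points are libraries, open points the 7 that stand apart, and lines the group means. Both SST probes are highest in the embryoid bodies, and all 3 GAD1 probes are highest in mesoderm.

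GAD1 was distributed differently. Its highest level with each of the 3 probes was in the mesoderm cells, not in a neural or embryoid body group. Probe 294 gave 302, 332, 218 and 394 reads in the mesoderm libraries, or 105.5, 101.5, 95.9 and 115.5 CPM. In CEPT EB the lowest library was at 0 CPM, the median at 14.1 and the highest at 50.4. In Y27 EB the lowest was at 0, the median at 4.90 and the highest at 33.3. All 4 mesoderm libraries thus lay above every other library, and the mesoderm mean was 6.44 times that of CEPT EB and 13.1 times that of Y27 EB. The summed mesoderm markers were 3260 to 3928 CPM in the mesoderm libraries. In Y27 EB replicate 15, the embryoid body library with the highest such sum, GAD1 was at 0 reads with probe 294, at a depth where 3 reads are 6.53 CPM. Most of its sum came from HAND1, at 1240 and 2597 CPM with probes 338 and 339, where the mesoderm means were 165.1 and 296.3. CDX2 probe 108 reached at most 23.9 CPM in Y27 EB, against a mean of 826.3 in mesoderm. Similar sums therefore stand for a different make-up of markers.

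Ectoderm gave 7.43, 3.93, 8.33 and 5.21 CPM with probe 294 from 12 to 19 reads, within the range of both embryoid body arms. Endoderm (0 to 4 reads) and hESC (0 or 1 read) lay at or near the floor, apart from ectoderm and overlapping each other. By group mean the order was mesoderm, CEPT EB, Y27 EB, ectoderm, endoderm and hESC. The neighbours CEPT EB and Y27 EB, Y27 EB and ectoderm, and endoderm and hESC overlapped. This order was the same when the libraries were scaled by DESeq2's median ratios, upper quartiles or totals alone.

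The other GAD1 probes separated mesoderm further. Probe 292, at the 5′ end, gave 51.4, 44.0, 76.5 and 45.5 CPM in mesoderm from 144 to 174 reads. It had no read in 9 of 16 CEPT EB libraries, in 12 of 16 Y27 EB libraries and in all hESC and endoderm libraries. Probe 293, whose name gives the shorter transcript, gave 9.08, 8.26, 7.91 and 12.3 CPM in mesoderm and at most 2.75 CPM in any other library. Whether this probe reads only that transcript was not examined. The balance of the probes differed as well. Summed over libraries, probe 292 gave 0.498 reads for each read of probe 294 in mesoderm (0.393 to 0.798 by library). The same ratio was 0.083 in CEPT EB, 0.094 in Y27 EB and 0.045 in ectoderm (0 to 0.118 by library). Mesoderm and ectoderm libraries therefore did not overlap in this ratio. The ectoderm ratio rests on only 3 reads of probe 292, in 2 of 4 libraries, over 12 to 19 reads of probe 294 in each. The embryoid body ratios rest on 78 and 58 reads of probe 292, found in 7 and 4 libraries. They include the libraries that stand apart in the ratios of same-gene probes. In CEPT EB the mean of probe 292 was 2.18 CPM in those 6 libraries and 0.927 in the other 10. With probe 294 the same means were 22.8 and 12.3 CPM.

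The name inhibitory neuron genes was checked against the rest of a list of GABA and interneuron genes, of which the panel had 7 beside the pair, with 19 probes. GAD2, the partner enzyme, reached a mean of at most 1.48 CPM in either embryoid body arm with any of its 3 probes, and its probe 295 had no read in any CEPT EB library. NKX2-1, which specifies the forebrain territory where cortical somatostatin interneurons arise, had no read of probe 937 in any embryoid body library and 38.7 ± 1.82 CPM in endoderm (SD, n = 4). The GABA receptor subunit GABRA2 reached a mean of at most 1.58 CPM in the embryoid bodies. LHX1 reached a mean of at most 5.00 CPM there and was highest in endoderm. Not every gene of the list is reported by name here. Summed over the 19 probes, the list ran from 26.5 to 99.8 CPM in the CEPT arm, from 38.0 to 69.9 in the Y27 arm, from 11.9 to 36.5 in hESC, ectoderm and mesoderm, and from 736.1 to 901.2 in endoderm. Against hESC 3 of 5 tested probes of the list were called higher in CEPT EB and 3 of 9 in Y27 EB, where 42.2% and 41.5% of all tested probes were. Most of the endoderm sum came from LHX1, whose probes 432 and 433 averaged 386.3 and 390.3 CPM there. SST and GAD1 are named singly below.

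Delta cells are the other well-known source of somatostatin. The summed delta cell and endoderm markers (6 genes, 14 probes) ran up to 120.1 CPM in the CEPT arm and from 4.72 to 256.7 in the Y27 arm, against 9593 to 11159 in endoderm, where SST was near the floor. The list mixes delta cell and endoderm genes, among them AFP, FOXA1, FOXA2, GATA6 and HHEX. Its sum therefore does not single out delta cells, and their presence was not tested. CPE, which trims peptide precursors such as that of somatostatin, was the sole gene of the processing list analysed here. It was highest in endoderm, at 5909 CPM with probe 1292, against 384.2 in CEPT EB, 425.2 in Y27 EB and 124.1 in hESC. SST and CPE therefore had different highest groups. Summed neural crest and glia markers (9 genes) lay between 3845 and 6079 CPM in the CEPT arm and between 4851 and 7610 in the Y27 arm, above the 133.2 to 582.6 of all reference libraries. Their part in the SST level was not tested.

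**Figure D2:**
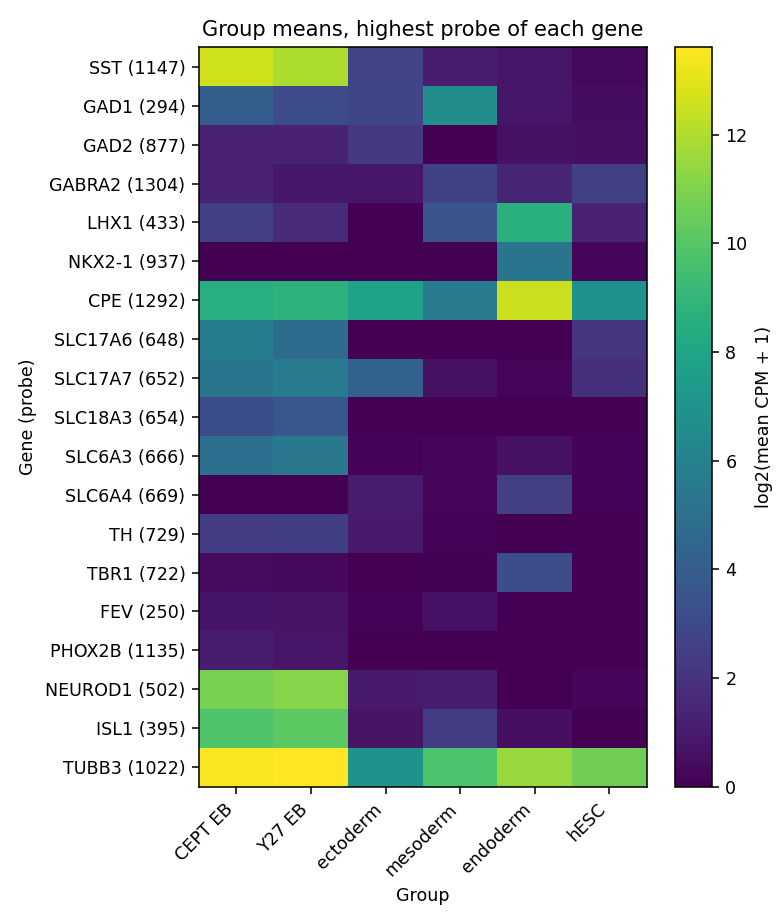
Mean level of SST, GAD1, other GABA list genes and further transmitter and neuronal genes in the 6 groups, shown as log2(mean CPM + 1) by colour for the probe of each gene with the highest mean (probe number beside the name). SST, NEUROD1 and ISL1 are high in both embryoid body columns, GAD1 is highest in mesoderm, and LHX1, NKX2-1 and CPE are highest in endoderm.

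Among all 389 genes with a mean of at least 10 CPM in some group, the 5 genes whose 6 group means were most like those of SST included S100B (Pearson r of log2 CPM 0.996), CADM1 (0.992) and NEUROD1 (0.991). S100B is a glial gene, CADM1 an adhesion gene and NEUROD1 a neuronal transcription factor. S100B had 314.5 CPM in CEPT EB, 167.4 in Y27 EB and at most 1.37 elsewhere with probe 623. With so few points, each of these values mainly records that a gene was high in both embryoid body arms and low in the rest. For GAD1 the list was MSX1 (r 0.939), TXNIP (0.886), IGFBP7 (0.880), PRTG (0.877) and CDKN1A (0.860). MSX1, a homeobox gene of early mesoderm, neural crest and dorsal neural tube, had 3999 CPM in mesoderm and at most 67.9 in any other group. SST and GAD1 themselves had r = 0.17 over the 6 means, so their group patterns were not alike.

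The main question of the design was whether the embryoid bodies made with CEPT differed from those made with Y-27632. Over the panel 205 of 867 tested probes, 23.6%, passed an adjusted p of 0.05 with edgeR's quasi-likelihood test and Benjamini-Hochberg adjustment, 10.6% higher in CEPT EB and 13% lower. The split of 92 higher and 113 lower became 107 and 75 with DESeq2's median ratios as scaling and 48 and 291 with library totals alone, a scaling that took the median over all probes from -0.04 to -0.36 on the log2 scale. Both SST probes and GAD1 probe 294 passed the filter on low counts, 3 of the 5 probes. The means of both arms were among the values by which the genes were chosen. Their p-values between the arms, given next, are read with that limit.

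SST was higher in CEPT EB with probe 1147, but the call rested on the libraries that stand apart. The CEPT arm averaged 6362 ± 2729 CPM and the Y27 arm 3913 ± 1144 (SD, n = 16 each). The median of Y27 EB was exceeded by 14 of 16 CEPT EB libraries. The log2 fold change was 0.69 ± 0.18 (SE) with an edgeR adjusted p of 0.00383, a 1.62-fold difference. Probe 1146, on the same transcript, had a log2 fold change of 0.36 ± 0.15 (SE) with an edgeR adjusted p of 0.0712 and did not pass. Its interval of 2 standard errors ran from 0.07 to 0.65, and 12 of 16 CEPT EB libraries exceeded the median of Y27 EB.

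The 2 SST probes parted in the 7 libraries named above. There probe 1147 gave 1.47 to 2.56 times the reads of probe 1146, while the ratio was 0.915 to 1.04 in the 25 others. The CEPT EB libraries with the highest values of probe 1147, replicates 14, 5 and 8 at 12089, 11424 and 9324 CPM, are all among the 7. Probe 1146 put the same libraries at 6956, 6929 and 5571 CPM, inside the range of the other CEPT EB libraries. Without the 7 libraries, the probes gave nearly equal log2 fold changes, 0.42 ± 0.16 (SE) for probe 1147 and 0.39 ± 0.15 for probe 1146, with edgeR adjusted p of 0.0638 and 0.0639 (10 CEPT EB and 15 Y27 EB libraries, with 20.8% of 885 probes called). With membership in the 7 as a covariate the estimates were 0.41 and 0.40, with edgeR adjusted p of 0.0571 and 0.0607. Both probes thus placed CEPT EB about 1.3-fold higher in the remaining libraries, a difference that did not pass the threshold. Since 6 of the 7 were CEPT EB and 1 was Y27 EB, the arms could not be compared within the 7.

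**Figure D3:**
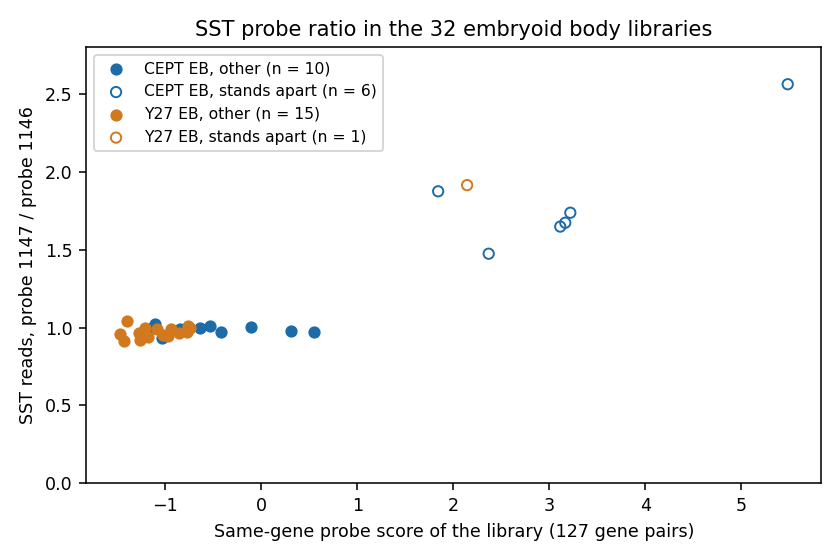
Reads of SST probe 1147 divided by reads of probe 1146 (vertical axis) against the score of same-gene probe ratios over 127 other genes (horizontal axis) in the 32 embryoid body libraries. The 7 open points lie between 1.47 and 2.56, and the 25 filled points between 0.915 and 1.04.

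Scaling also touched the SST result. With library totals alone the log2 fold change was 0.37 for probe 1147 (edgeR adjusted p 0.12) and 0.01 for probe 1146, while the median of all probes lay at -0.36. Relative to that median, both probes kept about the distance they had under the main scaling. Probe 1146 passed under 5 other settings of the fit, among them DESeq2 with a log2 fold change of 0.44 and an adjusted p of 0.0154.

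GAD1 did not pass the test between the arms. Probe 294 averaged 16.2 ± 12.9 CPM in the CEPT arm and 7.96 ± 8.81 in the Y27 arm (SD, n = 16 each), and 14 of 16 CEPT EB libraries exceeded the median of Y27 EB. The log2 fold change was 0.99 ± 0.51 (SE) with an edgeR adjusted p of 0.162. The interval of 2 standard errors, from -0.02 to 2.01, includes no difference. CEPT EB replicates 11 and 13 and Y27 EB replicate 15 had no read of this probe, and CEPT EB replicate 3 and Y27 EB replicate 16 held the highest values, 193 and 135 reads. Y27 EB replicate 16 weighed most. Without it the log2 fold change was 1.32 with an edgeR adjusted p of 0.0499. Without the 7 libraries it was 0.68 ± 0.62 (SE) with an edgeR adjusted p of 0.517.

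**Figure D4:**
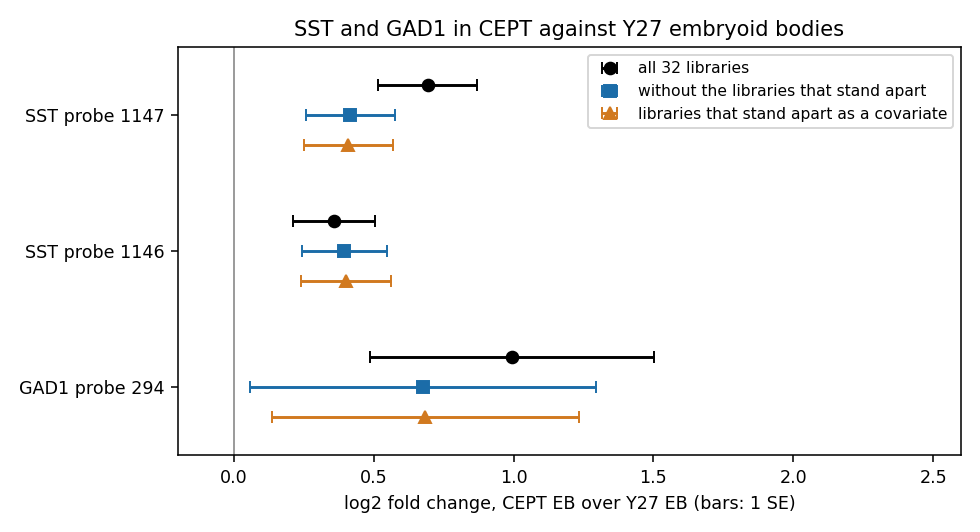
Log2 fold change of CEPT EB over Y27 EB with 1 standard error (horizontal axis) for SST probes 1147 and 1146 and GAD1 probe 294 from edgeR, with all 32 libraries, without the 7 that stand apart, and with those as a covariate. The SST probes differ with all libraries, at 0.69 and 0.36, and come together near 0.4 in the other fits. The GAD1 estimate has the widest error.

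Across the libraries of an arm no relation between the levels of the pair passed a test. Between SST probe 1147 and GAD1 probe 294, Pearson r was 0.16 (permutation p = 0.553, adjusted 0.663) and Spearman rho -0.01 (permutation p = 0.968, adjusted 0.968) in the 16 CEPT EB libraries. In the 16 Y27 EB libraries r was 0.39 (permutation p = 0.138, adjusted 0.207) and rho 0.32 (permutation p = 0.231, adjusted 0.968). Without the 2 libraries farthest from the SST median, r was 0.16 and 0.38. Without the 7 libraries that stand apart, r was 0.13 in CEPT EB (n = 10) and 0.36 in Y27 EB (n = 15). Single libraries moved it further: r in Y27 EB was 0.12 without replicate 15, the shallow library, and 0.23 without replicate 16, and r in CEPT EB was -0.0099 without replicate 11. These permutation tests were two-sided, and p-values were adjusted over 6 relations, the other 4 being each gene with the library total in each arm. Of those 4, GAD1 with the total in CEPT EB had r = 0.68 (permutation p = 0.00692, adjusted 0.0415) but rho = 0.24 (permutation p = 0.373, adjusted 0.968). It rested on the libraries with no GAD1 read, since r was -0.03 without the 2 farthest from the GAD1 median. With n = 16, neither a weak relation nor its absence is shown.

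**Figure D5:**
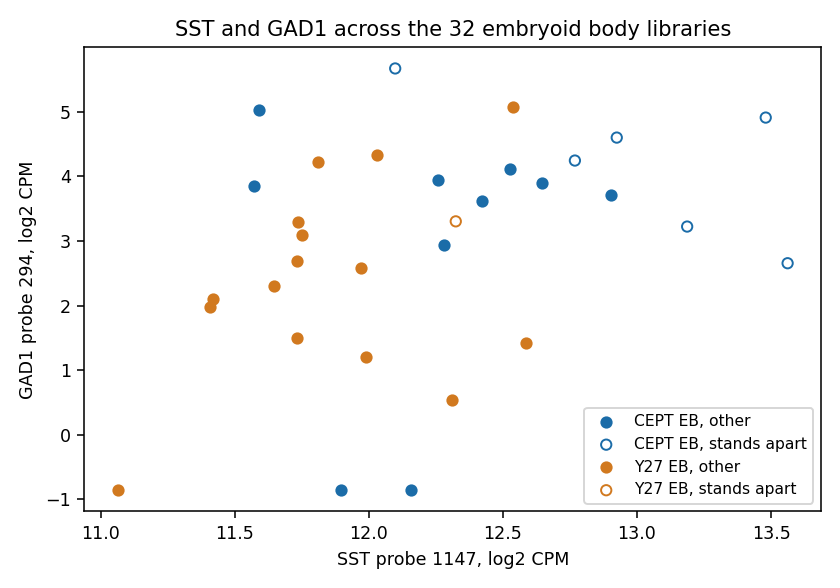
SST probe 1147 (horizontal axis) against GAD1 probe 294 (vertical axis), both as log2 CPM, in the 32 embryoid body libraries, with CEPT EB in blue, Y27 EB in orange and the 7 libraries that stand apart as open points. Pearson r is 0.16 in CEPT EB and 0.39 in Y27 EB, and the 3 libraries with no GAD1 read sit at the bottom.

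The spread between libraries was also compared. The mean absolute deviation of log2 CPM from the arm's median came to 0.48 in the CEPT arm and 0.32 in the Y27 arm for SST probe 1147. The difference of 0.17 did not pass a two-sided permutation test (p = 0.14, adjusted over both genes 0.28). Without the 7 libraries that stand apart it was 0.03. For GAD1 the deviations were 1.13 and 1.15, a difference of -0.02 (permutation p = 0.97, adjusted 0.97). GAD1 thus varied more between libraries than SST in both arms, at far fewer reads.

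Within the embryoid bodies, after the mean of each arm was subtracted, the genes most like SST probe 1147 over 32 libraries were GCLC (r 0.63), NELL2 (0.62), DACH1 (0.62), SLC1A2 (0.62) and PTN (0.60). Only SLC1A2, a glutamate transporter, and PTN, a secreted growth factor, stayed among the 5 highest in the 25 libraries that do not stand apart, at 0.57 and 0.55. There FUT8 (0.63), SLC17A6 (0.57) and UCHL1 (0.57) were the other three. SLC17A6 loads glutamate into vesicles and marks excitatory neurons. For GAD1 the highest over 32 libraries were SERPINE2 (0.68), LGI1 (0.65), GBX2 (0.65), GRHL3 (0.61) and NANOG (0.57), of which SERPINE2, LGI1 and GBX2 stayed among the 5 highest in the 25, at 0.74, 0.75 and 0.67. The libraries share depth and scaling, so these likenesses are descriptions.

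The wider neural lists place the pair among its neighbours. The 5 neural lists (GABA, somatostatin processing, pan-neuronal, other transmitters, progenitors) had 50 genes and 120 probes on the panel. Between the embryoid body arms 17 of 78 tested probes passed, 21.8%, close to the 23.6% of all probes, with 6 higher in CEPT EB and 11 lower. Without the 7 libraries that stand apart 11 of 81 passed, 4 higher and 7 lower. The split of 6 and 11 became 9 and 7 with DESeq2's median ratios as scaling, 8 and 7 with upper quartiles and 2 and 31 with library totals alone. The probes with the largest rise were SLC17A6 probe 649 (log2 fold change 1.505 ± 0.55, SE) and probe 648 (0.94 ± 0.24), LHX1 probe 433 (1.34 ± 0.50), and OTX2, a forebrain and midbrain factor, with probes 949 and 948 (1.21 for both). Those with the largest fall were all 3 probes of OLIG2, a factor of ventral progenitors and oligodendrocytes (-0.96, -0.90 and -0.83), and 2 probes of the adhesion gene NRCAM (-0.90 and -0.86). Without the 7 libraries, SLC17A6 probe 649 (1.38, edgeR adjusted p 0.184) and LHX1 probe 433 (1.35, edgeR adjusted p 0.0935) lost their calls, and the other 8 probes passed. OLIG2 probe 536 had 37.0 ± 12.9 CPM in the CEPT arm and 68.2 ± 25.3 in the Y27 arm (SD, n = 16 each). Of the GABA list, 3 probes of 2 genes could be tested, and the LHX1 probe was the sole one called. With library totals alone the list's 1 call was a lower one. Of the pan-neuronal list 7 of 28 tested probes fell, beside 13% of all probes, but 2 of 28 without the 7 libraries, 4 with median ratios or upper quartiles and 16 with library totals alone. Of the crest and glia list 2 of 21 tested probes rose and 12 fell, beside 10.6% and 13% of all. Without the 7 libraries 2 rose and 10 fell, and over the other scalings 2 rose and 9 to 15 fell. Of all 867 tested probes, 92 rose and 113 fell with the main scaling. The split was 107 and 75 with median ratios, 99 and 90 with upper quartiles and 48 and 291 with library totals alone. Without the 7 libraries 20.8% of 885 probes passed.

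Against hESC most of the panel changed, so counts there carry little on their own, and the 5 comparisons share the same 4 hESC libraries. In CEPT EB 76 of 84 tested neural list probes passed, 67 higher and 9 lower, where 73.4% of all probes passed (42.2% higher, 31.2% lower). In Y27 EB 70 of 89 passed, 60 higher and 10 lower, where 74.1% did (41.5% higher, 32.6% lower). The median log2 fold change of the neural probes was 3.24 and 3.14, against 0.47 and 0.39 over all probes. Of the GABA, somatostatin and pan-neuronal lists, the named rises were in ISL1, a factor of sensory and motor neurons, and NEUROD1. ISL1 probe 395 had no read in hESC, 938.1 ± 255.8 CPM in the CEPT arm and 1170 ± 247.5 in the Y27 arm (SD, n = 16 each). NEUROD1 probe 502 had 1781 ± 447.8 and 2291 ± 450.4 CPM. Of the list of other transmitters, SLC17A7, SLC18A3 and SLC6A3, which carry glutamate, acetylcholine and dopamine, had means of 38.7, 8.58 and 30.3 CPM in CEPT EB and 50.1, 12.02 and 42.8 in Y27 EB with the probe that was highest for each. In hESC the same probes were at most 2.75 CPM. On the panel that list had 9 genes and 18 probes, and 9 probes of 5 genes passed the filter on low counts in each comparison. Of these 9 probes, 8 were called higher than hESC in CEPT EB and 7 in Y27 EB. Over all tested probes the shares called higher were 42.2% and 41.5%. A probe with few or no reads in hESC could pass only through its embryoid body reads, so these counts do not test the list.

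In ectoderm 66 of 77 tested neural probes passed, 50 higher and 16 lower, beside 81.7% of all probes (43.2% higher, 38.5% lower). NEUROG2 probe 505, a proneural factor, was at 18.9 ± 3.56 CPM and MAP2 probe 457, a neuronal microtubule protein, at 507.5 ± 10.4, against 0.118 and 29.1 in hESC. TUBB3 probe 1022, a neuronal tubulin, fell from 1644 to 124.2 CPM. In mesoderm 55 of 77 passed, 20 higher and 35 lower, beside 77.5% (34.0% higher, 43.5% lower). There, of the GABA, somatostatin and pan-neuronal lists, the adhesion gene NCAM1 rose from 9.62 to 173.0 CPM with probe 492, and MAP2 probe 457 and the CPE probes fell. The mesoderm cells with the highest GAD1 thus had lower MAP2 than hESC, at 1.15 ± 0.789 CPM (SD, n = 4). In endoderm 67 of 77 passed, 33 higher and 34 lower, beside 78.2% (38.4% higher, 39.8% lower). The named rises were LHX1, at 390.3 CPM with probe 433, and NKX2-1, genes also known from early endoderm, while MAP2 and the neuronal splicing factor RBFOX3 fell.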

How the data were processed

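RASL-Seq probe counts were analysed in 48 libraries of WA09 cells. The authors deposited whole-number counts, not normalized, for every probe, in 1 table per sample and a merged table that held the same values. The submitters' processing notes name hg38 and DESeq2, and the counting tool is not given in the sources used here. A further 16 columns of the merged table match no sample label and were not used.

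Groups came from the labels. Counts were scaled by TMM and tested with edgeR's quasi-likelihood test (robust, filterByExpr), fitted on all probes of the groups compared and adjusted by Benjamini-Hochberg at 0.05. The fit was tested on simulated counts. CPM are TMM-scaled, and log2 CPM use a prior count of 2. Relations and spreads used 100000 permutations. Same-gene probe pairs needed at least 100 CPM, and libraries were split on the score by 2-means. No interval was made from single counts, and floors of 3 reads cover counting error only. Replicates of a group all differed by more than sampling noise (chi-square divided by its degrees of freedom, at least 5.23).

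The members and gene lists were chosen with earlier results of these data known. Named genes were all member probes, then called neural list probes with the largest change, up to 5 each way between embryoid bodies and up to 3 each way against hESC with at least 50 reads on average, and the 5 genes most like each member. Other genes of the short lists (GAD2, GABRA2 and the transmitter genes) and the libraries that stand apart were picked after values were seen. Tools, with versions, were R 4.3.3, edgeR 4.0.16, limma 3.58.1, DESeq2 1.42.0, Python 3.11.15, scipy 1.17.1 and matplotlib 3.10.9. Alternatives were other scalings and filters, DESeq2, a replicate block, covariates, probes summed per gene and leaving out libraries. Some withheld items are not reported here.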

Additional observations from a re-analysis of the deposited data

How the results depend on the processing

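The SST difference between the embryoid body arms with probe 1147 (log2 fold change 0.69, called) kept its direction in all alternatives and lost its call in 3: 0.37 with library totals alone, 0.42 without the 7 libraries that stand apart and 0.41 with those as a covariate, the last 2 chosen after seeing the data. In the other 10 settings it passed, and leaving out single libraries gave 0.60 to 0.76. The adjusted p over all alternatives other than single libraries ran from 1.1e-04 to 0.12. For GAD1 the range without single libraries was 0.77 to 1.32, with a call only without Y27 EB replicate 16. The replicate numbers do not pair the arms (correlations of deviations -0.35 to 0.16 over 16 pairs, 0 CEPT EB libraries closest to their own number). With the replicate block the log2 fold change was 0.62 for SST (edgeR adjusted p 0.0176) and 1.11 for GAD1 (edgeR adjusted p 0.287).

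The number of listed neural probes called between the arms was 17 in the main setting, 33 with library totals alone, 9 with at least 10 reads in every library (GAD1 was then not tested), 9 with probes summed per gene, 11 without the 7 libraries and 11 to 20 without single libraries, where CEPT EB replicates 3 and 10 each gave the lowest. Against hESC, the filter of 10 reads left 29 calls in CEPT EB, 25 in Y27 EB, 13 in ectoderm, 13 in mesoderm and 12 in endoderm, and summing probes per gene left 38, 35, 32, 25 and 34, since both settings test fewer features. The SST and GAD1 correlation in CEPT EB was -0.11 with SST probe 1146 and -0.0099 to 0.29 without single libraries, and in Y27 EB it was 0.12 to 0.53 without single libraries. The GAD1 spread difference was 0.043 with a prior count of 0.5, 0.042 with probes summed, 0.14 without the shallow library, 0.068 without the 7 and -0.26 to 0.14 without single libraries. No correlation of SST with GAD1 and no spread difference passed in any alternative run. In the 4-library groups none of the 16 probe and group combinations with any range held an outlying library by Dixon's ratio, and the other 4 were at 0 reads throughout. At 0 to 5 reads, the order of mesoderm, endoderm and hESC for SST was not detectable.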
